A study of Mus musculus with 223 samples.

Results

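The mouse mitochondrial genome carries 37 genes, and all 37 were among the 43629 genes of the count table. They were taken by symbol, as the genes whose names start with mt-, after the Ensembl gene identifiers had been matched to symbols. The set holds 2 rRNA genes, 13 mRNA genes and 22 tRNA genes. The study profiled single interneurons (INs) of the developing mouse cortex, each sorted for GFP and captured on a microfluidic chip, with 82 cells at embryonic day 18 (E18), 66 cells at postnatal day 2 (P2) and 75 cells at postnatal day 5 (P5). All mice were of the same transgenic line on a C57BL/6 background, in which enhanced GFP is driven by regulatory sequences of Htr3a, a serotonin receptor gene, so that INs born mainly in the caudal ganglionic eminence are labelled, and both sexes were used. Embryos or pups of 1 age were pooled before sorting, so each age was 1 sample without replicates and every difference below is a difference between these pools of cells, with no p-value. At P2 the cells carried the labels type 1 (22 cells), type 2 (31 cells) and type 3 (13 cells), and at P5 type 1 (34 cells), type 2 (19 cells) and type 3 (22 cells), and no type was given at E18. The authors drew these types from the same counts, with mitochondrial genes among those used, so a type set against the other types is a description.

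Mitochondria keep a small circular genome that is transcribed from both strands into long precursors, which are cut at the tRNAs into separate rRNAs, mRNAs and tRNAs. The mRNAs encode core subunits of the respiratory chain and of ATP synthase, and the rRNAs form the mitochondrial ribosome that translates them. The remaining subunits come from the nucleus, so oxidative phosphorylation, the main source of ATP in neurons, is built from both genomes. Most mitochondrial mRNAs carry short poly(A) tails, through which the oligo-dT priming used here can capture them, while the mt-Nd6 mRNA is known as the exception without a regular tail and mature tRNAs lack one too.

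Levels are given as RPM, read pairs per 1e+06 mapped, which is the read pairs on a gene over the mapped read pairs of the cell on that scale, and a pooled RPM divides the read pairs summed over the cells of a group by their summed mapped pairs. Intervals are exact 95% Poisson or binomial intervals and cover counting error only, since reads without molecular identifiers are not independent molecules. Mapped read pairs per cell ranged from 3.71 to 15.8 M (M for 1e+06), with a median of 9.46 M. The share of mapped pairs that fell on genes had a median of 58.6% at E18, of 49.9%, 51.8% and 44.4% in types 1, 2 and 3 at P2, and of 55.2%, 55.5% and 32.1% in types 1, 2 and 3 at P5. Type 3 at P5 thus had fewer pairs on genes than the other groups, and its summed level, its members past the fold and its nuclear oxidative phosphorylation genes are also given per pair on genes, while its other values use mapped pairs only. Cells in which at least 5% of reads lay on the mitochondrial chromosome had been removed by the study, which puts a ceiling on the mitochondrial share of the reads of a cell. The IN markers Gad1, Gad2, Dlx1, Dlx2, Dlx5 and Dlx6 summed to between 507 and 1324 pooled RPM in the 7 groups, and of the 6 markers only Dlx2 in type 3 at P2 was at 0. Hemoglobin genes were at 0 in every group, and in 74 cells at least 1 marker of excitatory neurons, astrocytes, the oligodendrocyte lineage, microglia or endothelium exceeded 10 RPM, 24 of them at E18, 20 at P2 and 30 at P5. The cell names carry a number, called a name prefix here, which is 353 in all P2 cells and 383, 392 or 393 in the E18 and P5 cells. What the number marks is not given in the labels, and the P2 age and prefix 353 cannot be told apart. The study used more than 1 capture chip at E18 and at P5 and 1 at P2. The labels do not give the chip of a cell.

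Transcripts of the mitochondrial genome were found in every cell, and type 3 at P2 stood above the other groups. Together the 37 genes held 16.1 M read pairs, or 1.41% of the pairs on genes. Their summed pooled RPM was 6940.1 at E18 (95% interval 6934 to 6946), 5118 in type 1, 6481 in type 2 and 14538 in type 3 at P2, and 9885 in type 1, 7279 in type 2 and 8866 in type 3 at P5. Over the single cells of E18 the sum ran from 737 through a median of 7306 to 17900 RPM. At P2 it ran from 1754 through 5189 to 8563 RPM in type 1, from 2001 through 5052 to 24406 RPM in type 2, and from 4682 through 14596 to 31661 RPM in type 3. At P5 the lowest, median and highest cells had 1977, 9350 and 26746 RPM in type 1, 1647, 6520 and 16404 RPM in type 2, and 877, 8821 and 26664 RPM in type 3. The groups overlapped throughout, and the spread within a group was wider than most differences between group medians. Type 3 at P2 was the highest group, and 12 of its 13 cells lay above the median of the other P2 cells (5083 RPM) and 3 above the highest of them (24406 RPM). The highest cell of all had 3.17% of its mapped pairs on these genes.

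**Figure D1:**
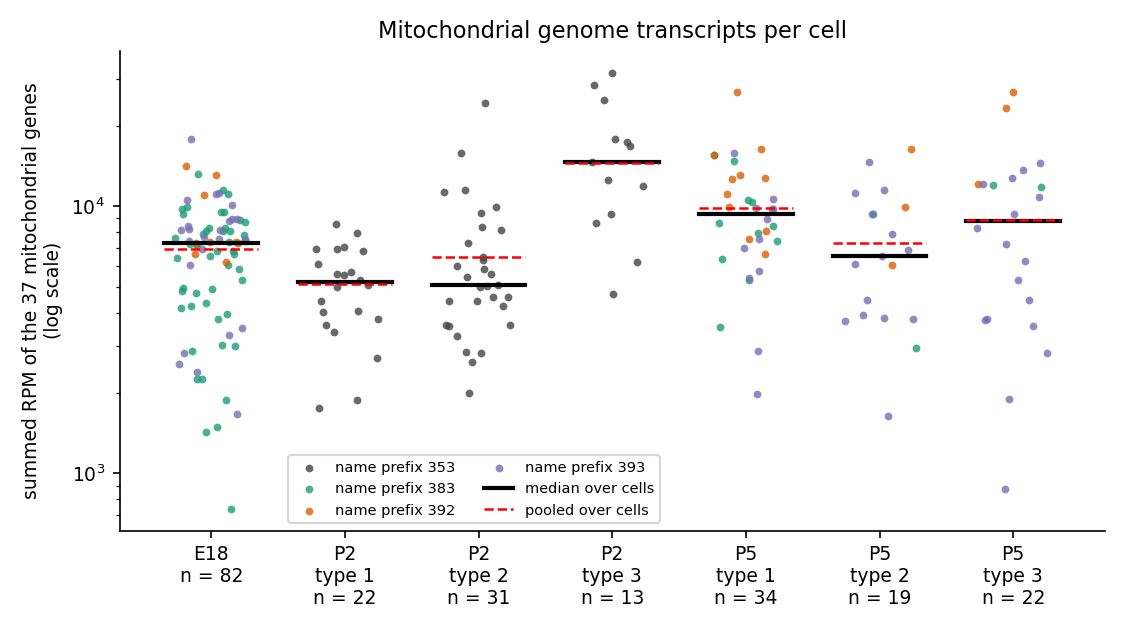
Summed RPM of the 37 mitochondrial genes in each cell (log axis), by age and type, coloured by name prefix, with the median over cells as a black bar and the pooled value as a dashed red line. Type 3 at P2 has a median of 14596 RPM against 5189 and 5052 RPM in types 1 and 2 of that age, and the cells of prefix 392 lie high at P5.

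Counted as a share of the pairs on genes, the mitochondrial transcripts made up 1.17% at E18, 1.03%, 1.21% and 3.22% in types 1, 2 and 3 at P2, and 1.78%, 1.20% and 2.60% in types 1, 2 and 3 at P5. On this scale both type 3 groups were high. The median over cells was 3.30% in type 3 at P2 and 2.51% in type 3 at P5, against 0.99% to 1.62% in the other 5 groups. In type 3 at P2 all 13 cells were above the median of the other P2 cells (1.01%), and in type 3 at P5 15 of 22 cells were above the median of the other P5 cells (1.51%).

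The 37 genes differed in level by several orders of magnitude. Per kilobase of annotated length over all cells, the large rRNA mt-Rnr2 had 1735 RPM per kb and mt-Cytb, the cytochrome b mRNA, 1729 RPM per kb. They were followed by mt-Nd1 with 979, mt-Co1 with 509, mt-Atp8 with 326, mt-Rnr1 with 286, mt-Nd4 with 227, mt-Nd2 with 202.2, the tRNA mt-Ts1 with 195.5, mt-Nd5 with 141.6 and mt-Nd6 with 97.04 RPM per kb. The other 5 mRNA genes were far lower, at 14.2 for mt-Atp6, 6.22 for mt-Co2, 1.20 for mt-Nd3, 1.17 for mt-Co3 and 0.0128 RPM per kb for mt-Nd4l. Only 4 genes, mt-Rnr2, mt-Cytb, mt-Nd1 and mt-Co1, held 84.2% of all mitochondrial pairs. All 37 genes had at least 1 pair in some cell, 20 exceeded 10 RPM in at least 1 cell, and 14 exceeded 10 RPM in more than 5% of all cells.

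The low mRNA genes lie close together in a stretch of the mitochondrial genome, and each has an almost unchanged annotated copy in a row of copies on chromosome 1. A search of the 37 sequences against the nuclear transcripts of the annotation (GENCODE M21 on GRCm38) with a minimum of 100 bases and 95% identity found 11 annotated copies. Of these, 7 lie in 1 row on the minus strand of chromosome 1 between 24611535 and 24616197, and the other 4 lie elsewhere and match less closely. In this row Gm28661 matched 681 bases of mt-Co2, Gm10925 678 bases of mt-Atp6, Gm28437 783 bases of mt-Co3, Gm10222 294 bases of mt-Nd4l and Gm28439 the first 876 bases of mt-Nd4, each at 100% identity. Gm28438 matched 345 bases of mt-Nd3 and Gm29216 the last 483 bases of mt-Co1, each with 1 mismatch. The copies elsewhere were Gm13340 (1545 bases of mt-Co1 at 97.6% identity), Gm13341 (684 bases of mt-Co2 at 95.9%) and Gm13339 (510.0 bases of mt-Nd2 at 96.7%) on chromosome 2, and Gm4076 (954 bases of mt-Nd5 at 95.2%) on chromosome 13, so mt-Nd2 and mt-Nd5 have partial copies too. The row on chromosome 1 corresponds to positions 6390 to 11042 of the mitochondrial genome, 4653 bases in all, called the copied stretch here. Only annotated transcripts were searched, so that the copied stretch is continuous on chromosome 1 is read from the spacing of the copies. No annotated copy of mt-Atp8, which lies inside it, was found, and the tRNA genes are shorter than the minimum of the search. The last 43 bases of mt-Atp8 are also the start of mt-Atp6, which Gm10925 matches. Between the starts of mt-Nd3 and mt-Nd4l the 2 copies differ by 1 base in spacing, and otherwise the spacing is the same in both genomes. Of the 6 mRNA genes wholly inside the copied stretch, mt-Atp8 had 326 RPM per kb and the other 5 had 0.0128 to 14.2. The 5 mRNA genes wholly outside it had 97.04 to 1729 RPM per kb. The 2 genes that lie partly inside, mt-Co1 and mt-Nd4, had 509 and 227 RPM per kb. The copies themselves held few pairs, from 5 for Gm10222 to 1479 for Gm28437 in all cells together. Read pairs that align equally well in more than 1 place are left out by the counting program under its default, and the setting used was not stated, so the levels of the genes with copies are uncertain and the part of the copies in them was not tested.

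The start of mt-Nd3 and of its copy, from the GENCODE M21 transcripts as all sequences printed here, shows how alike they are. The capital marks the base in which the 345 aligned bases differ, T3C, counted from 1 at the 5′ end of mt-Nd3 (chrM:9459-9471, plus strand, and chr1:24613107-24613119, minus strand, GRCm38).
mt-Nd3: atTaacctgtaca
Gm28438: atCaacctgtaca
In the same stretch mt-Atp8 and mt-Atp6, both subunits of ATP synthase, share 43 bases (chrM:7927-7969). The end of mt-Atp8 is printed from chrM:7907 with the shared bases in capitals, because pairs within them belong to both genes.
mt-Atp8: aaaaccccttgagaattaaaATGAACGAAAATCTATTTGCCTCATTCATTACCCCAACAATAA
The 7 bases that mt-Nd4l, the lowest mRNA gene, shares with mt-Nd4 are the capitals of the next sequence (chrM:10147-10173, plus strand).
mt-Nd4l: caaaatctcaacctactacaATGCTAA

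**Figure D2:**
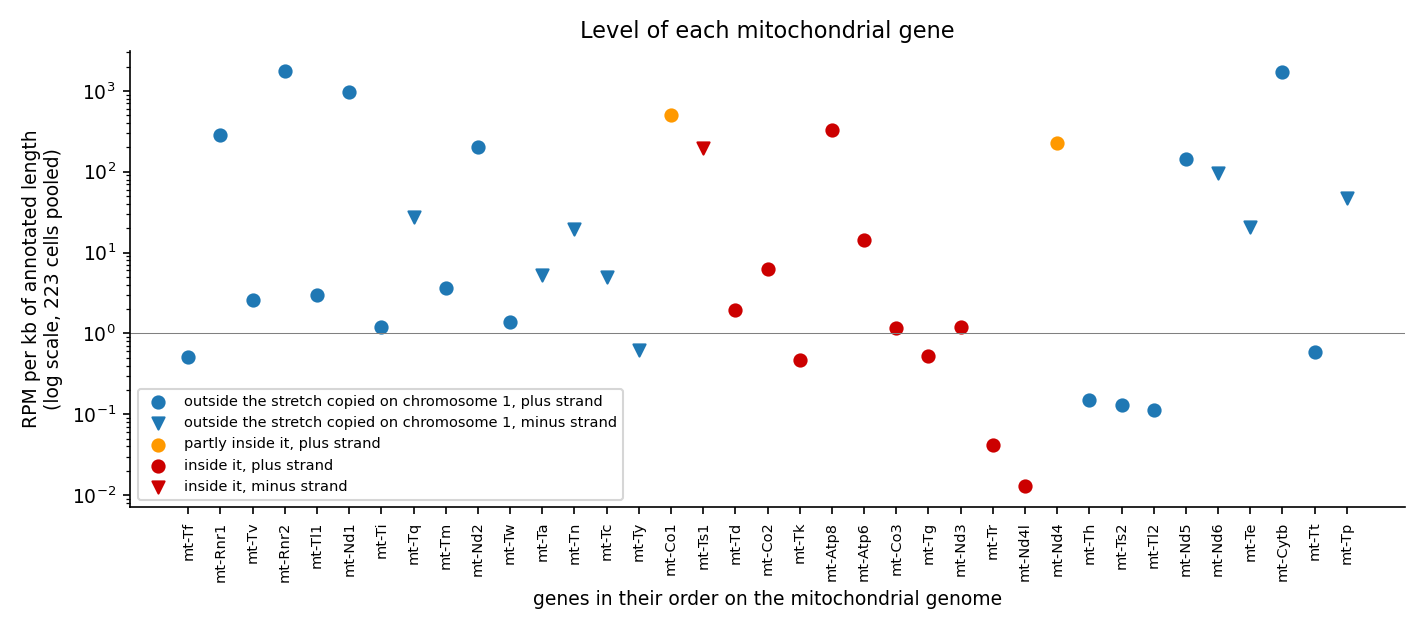
RPM per kb of annotated length (log axis, all cells pooled) of the 37 genes in their order on the mitochondrial genome, coloured by position relative to the copied stretch, the part spanned by the row of copies on chromosome 1, with triangles for the minus strand. Within the copied stretch only mt-Atp8 and the tRNA mt-Ts1 exceed 100 RPM per kb, as do 6 genes outside it and both genes that lie partly inside.

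The rRNAs are the structural RNAs of the mitochondrial ribosome, and mt-Rnr2, which lies at chrM:1094-2675, was the highest member in RPM. Its pooled level was 2342 RPM at E18, 1880 in type 1, 2212 in type 2 and 4836 in type 3 at P2, and 3880 in type 1, 2758 in type 2 and 3335 RPM in type 3 at P5. Over cells it ran from 185.2 through a median of 2375 to 5676 RPM at E18 and from 1678 through 5057 to 10771 RPM in type 3 at P2. It exceeded 10 RPM in every cell, and every group overlapped with every other. The small rRNA mt-Rnr1 (chrM:70-1024) was lower, with 236 RPM at E18, 144.5, 207.4 and 452 RPM in types 1, 2 and 3 at P2, and 411, 311 and 318 RPM at P5, again in the order of types 1, 2 and 3. One precursor yields both rRNAs, and per kb mt-Rnr2 exceeded mt-Rnr1 by 6.00 times at E18, 6.78 times at P2 and 5.76 times at P5. Whether the oligo-dT priming captured both rRNAs equally well was not tested.

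Complex I, the NADH dehydrogenase that feeds electrons into the chain, has 7 mitochondrial genes. The highest was mt-Nd1 (chrM:2751-3707), with 893 RPM at E18, 773, 830 and 1463 RPM in types 1, 2 and 3 at P2, and 985, 871 and 1259 RPM at P5, again in the order of types 1, 2 and 3. For mt-Nd4 (chrM:10167-11544) the pooled level was 300.4 RPM at E18, 108.2, 324 and 416 RPM in types 1, 2 and 3 at P2, and 421, 290 and 375 RPM for the 3 types at P5, so that type 1 at P2 was the lowest group. In mt-Nd2 (chrM:3914-4951) the groups lay between 143.7 RPM in type 2 and 286 RPM in type 3 at P2, with 216.2 RPM at E18. The mRNA mt-Nd5 (chrM:11742-13565) had 195.8 RPM at E18, 170.99, 325 and 236 RPM in types 1, 2 and 3 at P2, and 372, 228 and 350 RPM at P5, again in the order of types 1, 2 and 3. A few cells carried much of the mt-Nd5 total, since its median over cells in type 3 at P2 was 13.4 RPM and its highest cell had 1715 RPM. Only mt-Nd6 (chrM:13552-14070) lies on the minus strand among the mRNAs, and it shares 14 bases with mt-Nd5 on the opposite strand. Its mRNA is also the one known to lack a regular poly(A) tail, so its levels under oligo-dT priming are less certain than those of the other mRNAs. Whether the counting used strand was not stated, and the chemistry keeps none, so reads of mt-Nd6 cannot be told apart from reads of the opposite strand. It had 30.8 RPM at E18, 31.2, 40.99 and 61.5 RPM in types 1, 2 and 3 at P2, and 69.4, 50.4 and 136.8 RPM at P5, again in the order of types 1, 2 and 3. The share of cells above 10 RPM of mt-Nd6 was 53.7% at E18, 38.5% to 58.1% in the P2 types and 72.7% to 73.7% in the P5 types. The last 2 genes of the complex, mt-Nd3 and mt-Nd4l, lie in the copied stretch and reached 0.418 and 0.00380 RPM over all cells, with 878 and 8 pairs.

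Complex III, which passes electrons from ubiquinol to cytochrome c, has the single mitochondrial gene mt-Cytb (chrM:14145-15288). Its pooled level was 1896 RPM at E18, 1082, 1509 and 5057 RPM in types 1, 2 and 3 at P2, and 2571, 1783 and 1866 RPM at P5, again in the order of types 1, 2 and 3. The cells of E18 ran from 38.7 through a median of 1705 to 8253 RPM, those of type 1 at P2 from 1.79 through 955 to 2475 RPM, and those of type 3 at P2 from 1107 through 4634 to 14438 RPM. Type 3 at P2 was the highest group and type 1 at P2 the lowest, with overlap between single cells. In 30 of 82 E18 cells, 22 of 66 P2 cells and 14 of 75 P5 cells mt-Cytb held more read pairs than mt-Rnr2.

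Complex IV, cytochrome c oxidase, has 3 mitochondrial genes, of which mt-Co1 (chrM:5328-6872) encodes the catalytic subunit. It had 739 RPM at E18, 678, 772 and 1387 RPM in types 1, 2 and 3 at P2, and 844, 709 and 848 RPM at P5, again in the order of types 1, 2 and 3. A single cell of type 3 at P2 reached 7819 RPM, and the median of that group was 880.5 RPM, and without that cell the pooled level of the group was 1087 RPM. The levels of mt-Co2 and mt-Co3, both inside the copied stretch, were 3.0 to 12.3 RPM and 0.44 to 3.2 RPM, with the highest value in type 3 at P2 for both.

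Complex V, the ATP synthase, has mt-Atp8 (chrM:7766-7969) and mt-Atp6 (chrM:7927-8607). The pooled level of mt-Atp8 was 58.1 RPM at E18, 54.2, 77.999 and 253 RPM in types 1, 2 and 3 at P2, and 58.9, 47.3 and 45.7 RPM at P5, again in the order of types 1, 2 and 3. Its cells ran from 17.3 through a median of 278 to 778 RPM in type 3 at P2 and from 7.51 through 55.9 to 157.4 RPM at E18. Type 3 at P2 was alone in being high for this gene, and type 3 at P5 was the lowest group. The neighbour mt-Atp6 was lower, between 6.7 RPM in type 1 and 25.6 RPM in type 3 at P2, with 8.3 RPM at E18.

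The tRNA genes together held 0.305% of the mitochondrial pairs, and those on the minus strand held nearly all of that. Of all mitochondrial pairs, the tRNA gene mt-Ts1 alone held 0.176%. The 8 tRNA genes on the minus strand took 95.1% of the tRNA pairs, with a median of 1.41 RPM per gene, against a median of 0.0376 RPM for the 14 on the plus strand. The 5 highest tRNAs were mt-Ts1 with 13.5 RPM, mt-Tp with 3.20, mt-Tq with 1.97, mt-Te with 1.45 and mt-Tn with 1.37 RPM over all cells, and all 5 lie on the minus strand. The 2 lowest were mt-Tr with 6 pairs and mt-Ts2 with 16 pairs in all cells together. For mt-Ts1, a serine tRNA, the groups had 11.0 RPM at E18, 12.9, 12.0 and 32.6 RPM in types 1, 2 and 3 at P2, and 14.4, 11.8 and 19.1 RPM at P5, again in the order of types 1, 2 and 3. It was highest in type 3 at P2. Its gene overlaps the end of mt-Co1 on the opposite strand, so its pairs carry the same doubt about strand as those of mt-Nd6. All 8 tRNA genes on the minus strand carry this doubt, so the contrast between the strands cannot be read as tRNA levels. The highest and the lowest tRNA are printed whole, 5′ to 3′ (mt-Ts1, chrM:6870-6938, minus strand, and mt-Tr, an arginine tRNA, chrM:9808-9875, plus strand), and the capitals in mt-Tr mark its run of 8 A.
mt-Ts1: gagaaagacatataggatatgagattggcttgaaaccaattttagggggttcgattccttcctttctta
mt-Tr: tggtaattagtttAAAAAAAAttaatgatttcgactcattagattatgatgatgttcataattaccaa

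The first comparison asked how the members changed from E18 to P2 and P5. Differences are log2 ratios of pooled RPM after adding 1 RPM, and genes entered a comparison with over 10 RPM in over 5% of its cells, with a log2 ratio of at least 1 in either direction taken as past the fold. At P2 the summed mitochondrial RPM differed from E18 by a log2 ratio of 0.03 (-0.38 on medians over cells), and none of the 14 members that passed the filter was past the fold. Of the 9293 genes that passed, 11.5% were past the fold upward and 21.8% downward. The same sum at P5 was 1.29 times that at E18, a log2 ratio of 0.37. Of 13 members 12 had a log2 ratio above 0 at P5, with a median of 0.32, and 1 was past the fold, mt-Nd6 with 1.37. Among the 9808 genes that passed, the median log2 ratio was -0.17, with 11.9% past the fold upward and 19.6% downward. The 2 rRNAs, mt-Rnr1 and mt-Rnr2, differed between P5 and E18 by 0.62 and 0.56, and mt-Nd5 by 0.75. Within name prefixes the summed log2 ratio of P5 to E18 was 0.52 in prefix 383 and 0.49 in prefix 392, but -0.07 in prefix 393, so the difference did not hold within every prefix. Dissociation was at room temperature for P5 and at a higher temperature for E18 and P2, and this step and age cannot be told apart.

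At P2 type 3 was higher than the other types in most members. The summed RPM differed by a log2 ratio of 1.30, a 2.46-fold difference, and by 2.01 with TMM factors and 2.21 with DESeq2 size factors, which scale all genes of the comparison alike. Of the 14 members that passed the filter 8 were past the fold upward, namely mt-Cytb with 1.93, mt-Atp8 with 1.88, mt-Co2 with 1.504, mt-Atp6 with 1.42, mt-Ts1 with 1.33, mt-Rnr1 with 1.32, mt-Rnr2 with 1.22 and mt-Tp with 1.19. Only mt-Nd5, with -0.14, was below 0, and on medians over cells it was past the fold downward. For the 8400 genes tested at this age, 16.0% were past the fold upward in type 3 and 53.4% downward, with a median log2 ratio of -1.26. In complex I the members had smaller log2 ratios, from -0.14 for mt-Nd5 through 0.72 for mt-Nd6 to 0.93 for mt-Nd2. Without the highest cell of each group mt-Nd6 was at -0.22, and on medians over cells it was at -2.43, so its sign rested on the highest cells. Type 3 cells at P2 also had fewer mapped pairs (median 6.48 M, against 9.79 and 9.75 M in types 1 and 2) and fewer genes above 10 RPM (median 1437, against 1834 and 2482), and the part of these in the result was not tested. Without the cells that held a marker of another cell type above 10 RPM, of which type 3 at P2 had 3, the summed log2 ratio was 1.20. The names of the P2 cells carry a second part after the prefix, SF1 to SF5, whose meaning is not given in the labels. By this part the pooled sum of the P2 cells ran from 3698 RPM in SF5 to 10147 RPM in SF4. The types were not compared within it.

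Type 1 at P2 had the lowest pooled mitochondrial level, while on medians over cells type 2 at P2 was lower (5052 against 5189 RPM). Its summed RPM differed from that of the other types by a log2 ratio of -0.68, all 14 members that passed the filter were below 0, and 3 were past the fold downward, mt-Nd4 with -1.66, mt-Atp8 with -1.08 and mt-Cytb with -1.07. The background for this comparison was 19.4% past the fold upward and 31.9% downward. These comparisons share cells, since the other types include type 3, and on medians over cells, which give each cell the same weight, the summed log2 ratio was -0.27. The median of mt-Cytb over cells was 955 RPM in type 1, against 1234 and 4634 RPM in types 2 and 3. In type 2 at P2 the sum differed from the other types by -0.25 and no member was past the fold, where 28.1% of all genes were past it upward and 19.9% downward. The highest ratios in type 2 were 0.78 for mt-Nd5 and 0.75 for mt-Nd4.

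At P5 the types differed less in summed mitochondrial RPM, by log2 ratios of 0.30 for type 1, -0.39 for type 2 and -0.02 for type 3, each against the other types. No member was past the fold in type 1, where 23.6% of the 9675 genes tested were past it upward and 23.7% downward, nor in type 2, where 23.5% were past it upward and 21.8% downward. In type 3 only mt-Nd6 was past it, with 1.11, while 14.7% of all genes were past it upward and 45.7% downward. With pairs on genes as denominator the summed log2 ratio of type 3 at P5 was 0.73, and 6 members were past the fold upward, mt-Nd1, mt-Nd2, mt-Ts1, mt-Co2, mt-Nd6 and mt-Tp. These are 42.9% of the 14 members that passed, while 28.1% of all genes were past the fold upward and 34.01% downward on that denominator. Prefix 392 was high in every type at P5, with a pooled sum of 12581, 10225 and 20519 RPM in types 1, 2 and 3, against 7837, 6962 and 6796 RPM in prefix 393. Within prefixes the log2 ratio of type 3 was 0.46, 0.77 and -0.12 in prefixes 383, 392 and 393, where it rested on 2, 3 and 17 cells of type 3. For type 1 the values were 0.29, -0.19 and 0.19, and for type 2 they were -0.92, -0.43 and -0.07. Only type 2 kept 1 sign in the 3 prefixes, where it rested on 2, 3 and 14 cells of type 2.

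**Figure D3:**
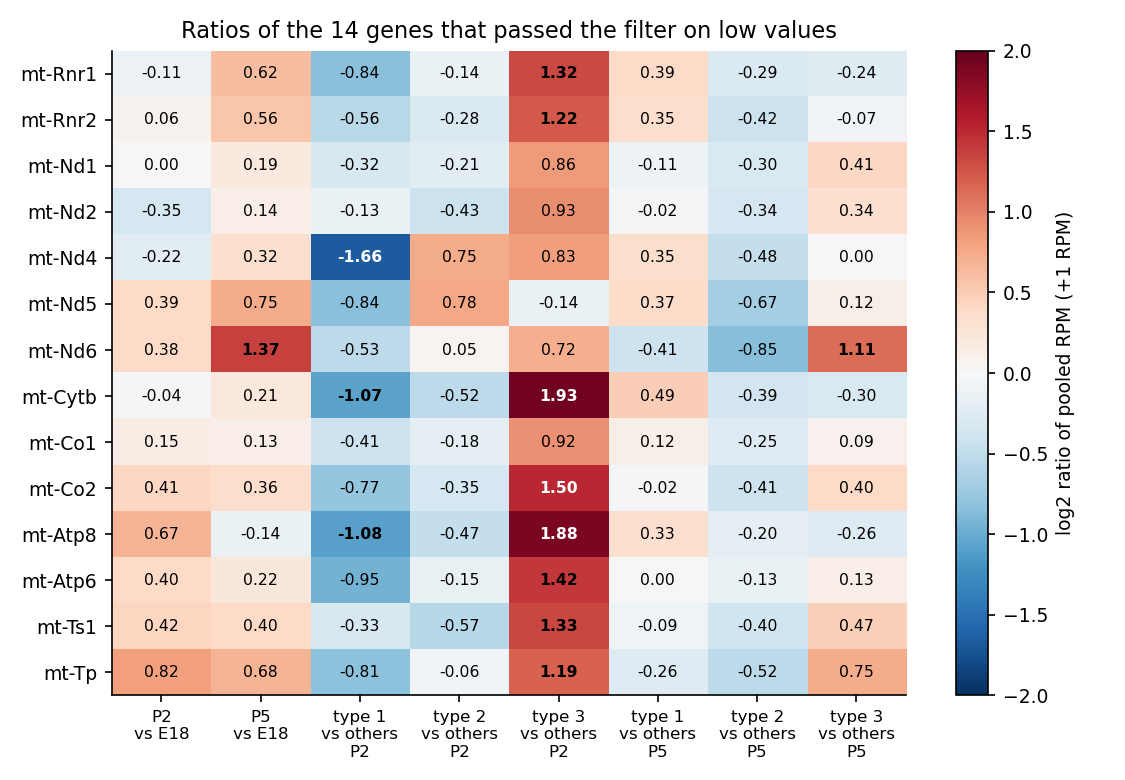
Log2 ratios of pooled RPM (1 RPM added) of the 14 members that passed the filter on low values in the 8 comparisons, with ratios of at least 1 in either direction in bold. For P5 against E18 mt-Co2 did not pass and is drawn without being counted. The column of type 3 at P2 holds 8 of the 13 bold values, from 1.19 for mt-Tp to 1.93 for mt-Cytb, and mt-Nd6 is bold at P5 against E18 and in type 3 at P5.

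The balance between rRNA and mRNA read pairs varied more between single cells than between groups. These are shares of read pairs after oligo-dT priming, and how fully the priming captured the rRNAs was not tested. The rRNAs made up 37.1% of the mitochondrial pairs at E18 (95% binomial interval 37.1% to 37.2%), 39.6%, 37.3% and 36.4% in types 1, 2 and 3 at P2, and 43.4%, 42.2% and 41.2% in types 1, 2 and 3 at P5. The 3 P5 types lay above the E18 and P2 groups in the pooled share. Over cells the lowest, median and highest shares were 5.07%, 37.9% and 61.5% at E18, 12.7%, 37.9% and 67.003% at P2, and 19.8%, 41.1% and 83.98% at P5, so that the ages overlapped widely. Within name prefix 383 the median share was 35.7% at E18 and 42.4% at P5, in prefix 392 39.6% and 40.1%, and in prefix 393 41.8% and 41.2%, so the higher share at P5 was not seen in every prefix. The rRNA pairs outnumbered the mRNA pairs in 7 of 82 E18 cells, 13 of 66 P2 cells and 16 of 75 P5 cells.

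Among the mRNAs both extremes of the shares of complexes I and V lay in the type 3 groups. Complex III held 43.7% of the mRNA pairs at E18 and 54.96% in type 3 at P2, against 35.3% and 37.4% in types 1 and 2 of that age. Complex I held 37.7% at E18, 26.8% in type 3 at P2 and 46.4% in type 3 at P5. The share of complex IV lay between 15.2% and 22.2%, and that of complex V between 1.09% in type 3 at P5 and 3.03% in type 3 at P2. Type 3 cells thus had another make-up at P2 than at P5, a difference that was not tested.

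**Figure D4:**
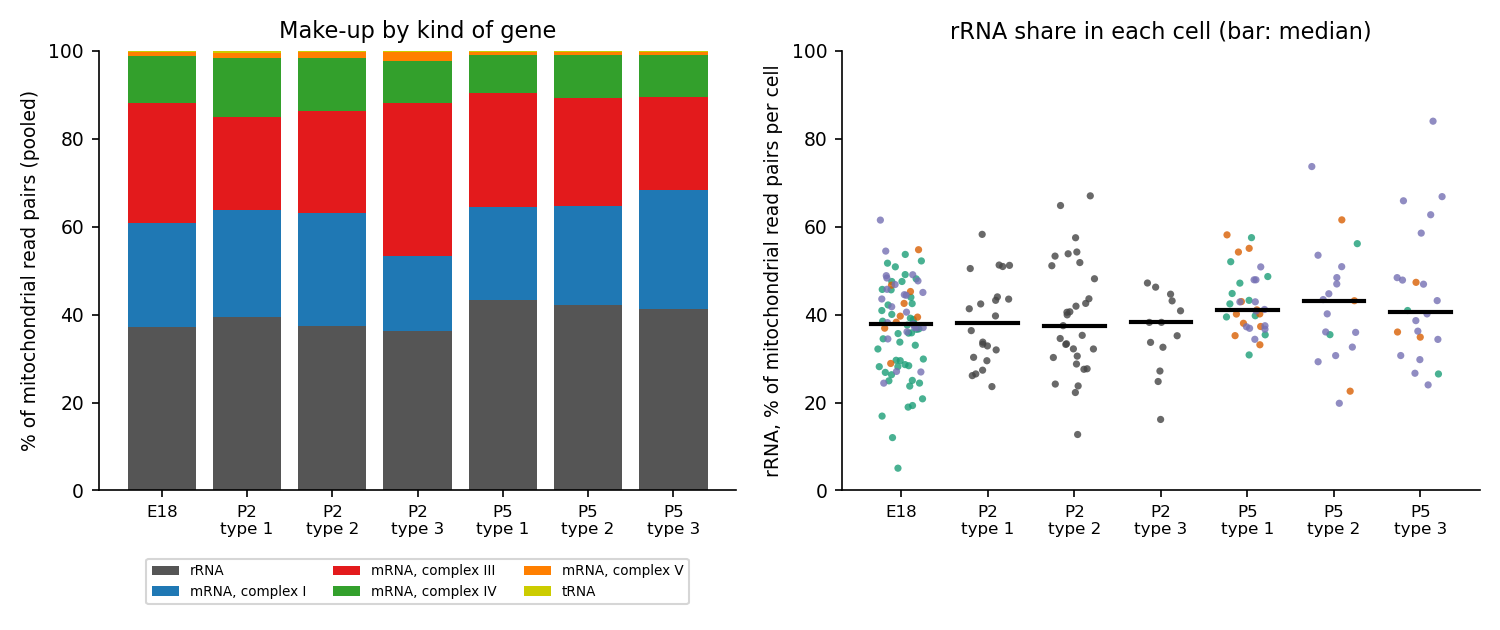
Left, share of the mitochondrial read pairs by kind of gene in each group, pooled over cells. Right, rRNA share in each cell by group (points coloured by name prefix, green 383, orange 392, purple 393, grey 353, with the median as a bar), which runs from 5.07% in an E18 cell to 83.98% in a P5 cell while the group medians lie between 37.5% and 43.2%.

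The nuclear genes of oxidative phosphorylation were lower in type 3 than in the other types at both ages, as was the median gene of all those tested. The list holds 80 protein-coding genes of complexes I, III, IV and V chosen by symbol, and its summed pooled RPM was 5634 at E18, 4128, 5891 and 2985 in types 1, 2 and 3 at P2, and 4639, 6175 and 1537 in types 1, 2 and 3 at P5. In type 3 at P2, where the mitochondrial sum was highest, 42 of the 71 nuclear genes that passed the filter were past the fold downward (59.2%, against 53.4% of all genes) and 5 upward, with a median log2 ratio of -1.68. In type 3 at P5 61 of 72 were past it downward (84.7%, against 45.7% of all genes) and none upward, with a median of -1.81. The median over all genes tested was -1.26 and -0.78 in these comparisons, so the list's share at P2 was near the background and that at P5 was above it. With pairs on genes as denominator 39 of 72 (54.2%) were past the fold downward in type 3 at P5 and 2 upward, with a median of -1.08, against 34.01% downward and a median of -0.09 over all genes. Atp5a1, an ATP synthase subunit and the highest gene of the list, had 426 and 368 RPM in types 1 and 2 at P2 and 30.95 RPM in type 3. Atp5b, another subunit of the same enzyme, had 258, 436 and 183.5 RPM in types 1, 2 and 3. Cox6a1, a subunit of cytochrome c oxidase, had 150.2, 388 and 368 RPM in the same order and was not low in type 3. The ratio of mitochondrial mRNA to the nuclear list was 0.77 at E18, 0.74, 0.69 and 3.08 in types 1, 2 and 3 at P2, and 1.20, 0.68 and 3.37 in types 1, 2 and 3 at P5. Mitochondrial mRNA exceeded the nuclear list in all 13 cells of type 3 at P2 and in 21 of 22 cells of type 3 at P5. It did so in 16 of 82 cells at E18, in 6 of 22 and 4 of 31 cells of types 1 and 2 at P2, and in 23 of 34 and 3 of 19 cells of types 1 and 2 at P5.

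Of the 72 nuclear genes that passed, 60 (83.3%) were below E18 at P5, with a median log2 ratio of -0.41, as were 57.8% of all genes, with a median of -0.17. Only 4 of the 72 (5.56%) were past the fold downward, against 19.6% of all genes, and none upward. Of the mitochondrial members 12 of 13 were above E18, but their summed level was not in prefix 393, as given above. In type 2 the nuclear list had a median log2 ratio against the other types of 0.72 at P2 and 0.71 at P5, where the medians of all genes were 0.19 and 0.03 and those of the mitochondrial members -0.19 and -0.40. At P2 21 of 71 (29.6%) were past the fold upward, near the 28.1% of all genes, and at P5 25 of 72 (34.7%), against 23.5% of all genes.

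The nuclear genes whose products read the mitochondrial genome and translate its mRNAs are read here against the same shares of all genes in type 3, 53.4% downward at P2 and 45.7% at P5. The 77 mitochondrial ribosomal protein genes summed to 1982 RPM at E18 and 736 RPM in type 3 at P5, and in type 3 at P2 50 of 65 (76.9%) were past the fold downward and 8 upward. In type 3 at P5 45 of 73 (61.6%) were past it downward and 4 upward. Mrpl28, the highest of them, had 195.4 RPM in type 3 at P2, above types 1 and 2, and 0.45 RPM in type 3 at P5. The 14 genes of mitochondrial transcription and replication, among them the polymerase gene Polrmt and the factor gene Tfam, summed to 144.4 to 254 RPM over the groups, led by Ssbp1, which binds single-stranded mitochondrial DNA, with 34.8 RPM over all cells. At P5 4 of the 12 that passed were past the fold downward against E18 and none upward, where 19.6% of all genes were past it downward and 11.9% upward. In type 3 4 of 7 (57.1%) were past it downward and 2 upward at P2, and 5 of 10 downward and 1 upward at P5, shares near the background. Twnk, the mitochondrial DNA helicase gene, had its highest level in type 3 at P2, with 63.1 RPM. The 16 genes of mitochondrial RNA processing summed to 78.2 RPM in type 3 at P2, where 10 of 12 (83.3%) were past the fold downward and none upward, and to between 250.1 and 514 RPM elsewhere. In type 3 at P5 7 of 12 (58.3%) were past it downward and 2 upward, nearer the background. Grsf1, an RNA-binding protein of mitochondrial RNA granules, had 193.98 and 105.3 RPM in types 1 and 2 at P5 and 5.22 RPM in type 3, whereas Lrpprc, which binds mitochondrial mRNAs, was highest in type 3 at P5 with 91.04 RPM. Over all cells Mrpl28, Twnk, Grsf1 and Lrpprc exceeded 10 RPM in 33.2%, 18.4%, 14.3% and 22.9% of cells. Their group levels can therefore rest on a few cells. The 8 biogenesis regulators, which include Ppargc1a and Nrf1, summed to 98.1 to 185.4 RPM, and in type 3 at P2 1 of 6 was past the fold upward and 3 downward, near the background, as at P5, with the same counts. For the 85 cytoplasmic ribosomal protein genes the sum was 10456 RPM at E18, 2445 RPM in type 3 at P2 and 2215 RPM in type 3 at P5, with 59 of 82 (71.95%) and 71 of 82 (86.6%) past the fold downward in type 3 at these ages.

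**Figure D5:**
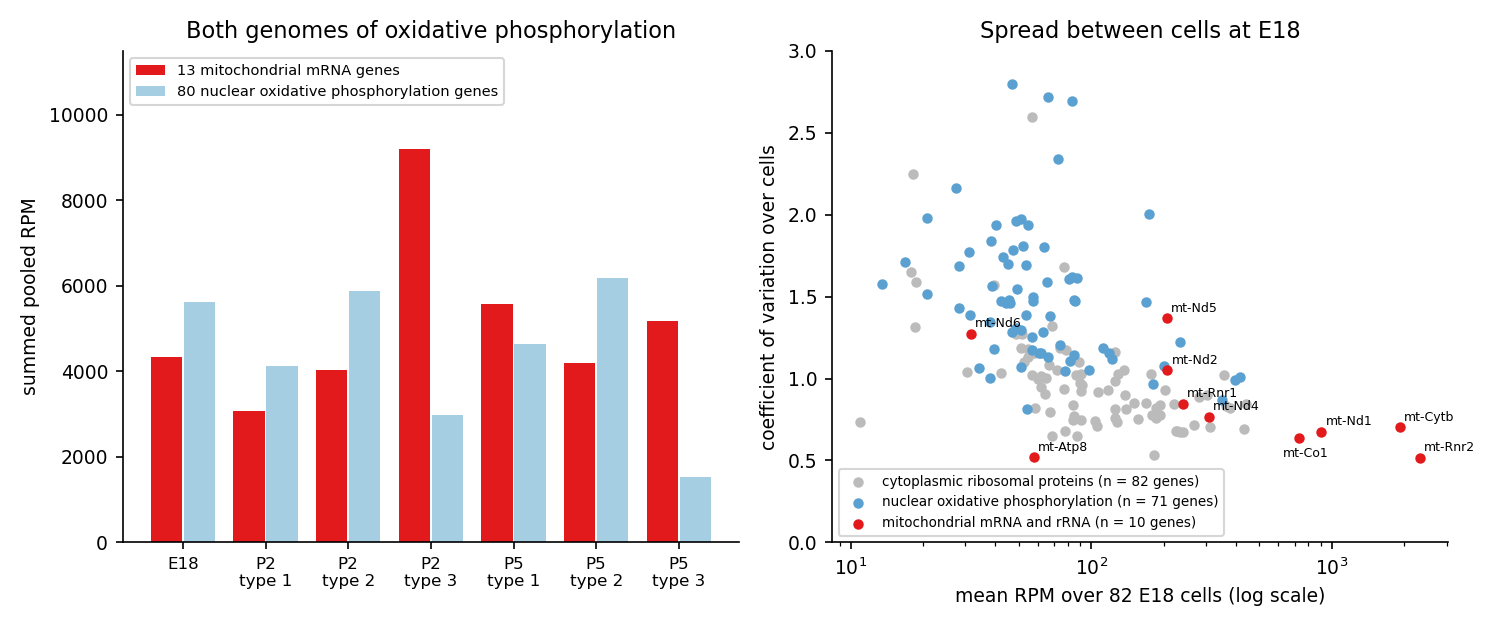
Left, summed pooled RPM of the 13 mitochondrial mRNA genes and of the 80 nuclear genes of oxidative phosphorylation by group, with the mitochondrial bar above the nuclear one in both type 3 groups and in type 1 at P5. Right, coefficient of variation over the 82 E18 cells against mean RPM (log axis), for genes with a mean above 10 RPM, where mt-Rnr2 and mt-Atp8 have the lowest values of the mitochondrial genes, 0.52 each.

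From cell to cell single mitochondrial genes with a mean above 10 RPM had lower coefficients of variation at E18 than single nuclear genes of oxidative phosphorylation, but the sum of the list did not. The coefficient of variation (SD over mean of RPM) at E18 had a median of 0.74 over the 10 mitochondrial mRNA and rRNA genes with a mean above 10 RPM, of 1.47 over 71 nuclear oxidative phosphorylation genes and of 0.92 over 82 cytoplasmic ribosomal protein genes. The mitochondrial genes were also the more abundant ones, and the part of abundance in the difference was not tested. Among the less abundant members mt-Atp8 had a coefficient of 0.52 and mt-Nd6 one of 1.27. For the sums the coefficient at E18 was 0.46 over the mitochondrial genes and 0.39 over the nuclear list, and the mitochondrial sum was also the more variable one in type 2 at P2 (0.69 against 0.38) and in types 1 and 2 at P5 (0.48 against 0.40 and 0.55 against 0.38), and the less variable one in type 1 at P2 and in both type 3 groups. Among the mitochondrial genes with a mean above 10 RPM in a group, mt-Rnr2 had the lowest coefficient in 4 of the 7 groups. Its values ran from 0.52 to 0.66 over all 7, and those of mt-Nd5 from 1.10 to 1.97. The share of E18 cells above 10 RPM had a median of 96.3% over the 10 mitochondrial genes and 53.7% over the nuclear genes.

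Across the cells of a group the members went up and down together only in part. Spearman's rho over the 28 pairs of mt-Rnr1, mt-Rnr2, mt-Nd1, mt-Nd2, mt-Co1, mt-Nd4, mt-Nd5 and mt-Cytb had a median of 0.37 at E18 (82 cells), with a range from 0.15 to 0.60. The median was 0.18, 0.31 and 0.24 in types 1, 2 and 3 at P2 and 0.43, 0.47 and 0.57 in types 1, 2 and 3 at P5, over 13 to 34 cells. All pairs were positive at E18 and in the 3 P5 types, whereas some were below 0 in each P2 type. The rRNA sum followed the mRNA sum with rho between 0.52 and 0.79 in the 7 groups. These values share the library and the mapped total of each cell and are given as a description. The summed mitochondrial RPM, whose denominator is the mapped pairs, had a rho with mapped pairs of -0.03 at E18. It was 0.28, -0.02 and -0.55 in types 1, 2 and 3 at P2 and 0.15, -0.07 and -0.46 in types 1, 2 and 3 at P5. In both type 3 groups, of 13 and 22 cells, the cells with fewer mapped pairs thus tended to have a higher mitochondrial RPM.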

How the data were processed

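RNA of single GFP-positive INs was reverse transcribed and amplified with oligo-dT priming, and Nextera libraries were sequenced as read pairs of 50 bases without molecular identifiers. The authors aligned the pairs with TopHat2 to GRCm38 and counted pairs per Ensembl gene with HTSeq 0.6.1, and they deposited 1 table of whole counts per gene and cell. The deposited counts were made after quality filters that removed, among others, cells with at least 5% mitochondrial reads. Whether strand was used, and how pairs with several placements were treated, is not given in the sources used here. No count column was left unused. The coefficient per cell for RPM came from the sample labels, and the mapped pairs were derived from it.

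Gene identifiers were named from GENCODE M21 (GRCm38), by which 42462 of 43629 were matched and 1167 were not. Counts and mapped pairs were summed over the cells of a group (pooled RPM), and log2 ratios were taken with 1 RPM added. Exact 95% Poisson and binomial intervals were computed. Genes with over 10 RPM in over 5% of the cells of a comparison were kept, and a log2 ratio of at least 1 in size was counted. All 13 mRNA and 2 rRNA genes are named, with the 5 highest and 2 lowest tRNA genes and the highest genes of each nuclear list. The list of cytoplasmic ribosomal proteins was taken by symbol pattern, and kinases, a binding protein and pseudogenes with matching symbols were left out by name. Nuclear copies were searched with BLAST 2.17.0 at 95% identity over at least 100 bases. The members, lists and comparisons were chosen with earlier results of these data known. Because animals of an age were pooled, no test between groups was made. Alternatives were the other denominators (pairs on genes, TMM factors of edgeR 4.0.16, size factors of DESeq2 1.42.0), medians over cells, leaving out the highest cell, a pseudocount of 0.1 RPM, no filter and single name prefixes. The scripts (R 4.3.3 and Python 3.11.15 with scipy 1.17.1, pandas 2.3.3, matplotlib 3.10.9 and numpy 2.4.6) were tested on simulated data.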

Additional observations from a re-analysis of the deposited data

Results flagged for a closer look

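The summed mitochondrial RPM of type 1 lay below the other types at P2 (log2 ratio -0.68) and above them at P5 (log2 ratio 0.30). That of type 3 lay above the other types at P2 (log2 ratio 1.30) and marginally below them at P5 (log2 ratio -0.018). Both were picked out because the sign of a type differed between the ages, and neither difference was tested, since each age was 1 pool of animals. With pairs on genes as denominator the values at P5 were 0.083 for type 1 and 0.73 for type 3, so that the opposite sign of type 3 was not seen on that scale.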

How the results depend on the processing

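The summed mitochondrial log2 ratios are listed in the order P2 against E18, P5 against E18, types 1, 2 and 3 against the other types at P2, then types 1, 2 and 3 at P5. With pairs on genes as denominator they were 0.24, 0.57, -0.62, -0.40, 1.51, 0.083, -0.72 and 0.73. With TMM factors they were 0.22, 0.53, -0.45, -0.43, 2.01, 0.33, -0.46 and 0.47, and with DESeq2 size factors 0.22, 0.50, -0.45, -0.40, 2.21, 0.36, -0.37 and 0.46. On medians over cells they were -0.38, 0.21, -0.27, -0.29, 1.52, 0.38, -0.49 and 0.062. Without the highest cell of each group they were 0.03, 0.36, -0.69, -0.33, 1.30, 0.30, -0.43 and -0.11, and over the 13 mRNA genes 0.016, 0.24, -0.75, -0.23, 1.34, 0.25, -0.38 and 0.025. Without the 74 cells with a marker of another cell type above 10 RPM, an alternative chosen after seeing the data, they were 0.066, 0.60, -0.42, -0.49, 1.20, 0.48, -0.44 and -0.20. Within name prefixes 383, 392 and 393 they were 0.52, 0.49 and -0.074 for P5 against E18, 0.29, -0.19 and 0.19 for type 1, -0.92, -0.43 and -0.065 for type 2, and 0.46, 0.77 and -0.12 for type 3 at P5. Type 3 at P2 was thus at 1.20 or more and type 3 at P5 on either side of 0, and the cause was not tested.

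The rRNA share as a median over cells was 37.9%, 38.02%, 37.5%, 38.2%, 41.1%, 43.2% and 40.5% from E18 through types 1 to 3 at P2 and at P5, and without the cell with most mitochondrial pairs it was 37.2%, 37.99%, 39.2%, 36.02%, 43.4%, 42.4% and 42.2%. With no filter beyond 1 pair the shares of all genes past the fold were 10.4% upward and 35.1% downward in type 3 at P2, 15.4% upward in type 1 at P5 and 29.2% downward in type 3 at P5. In members past the fold the count for type 3 at P2 was 8 with a pseudocount of 0.1 RPM, 12 with pairs on genes, 8 on medians, with mt-Nd5 and mt-Nd6 then past it downward, and 7 without the highest cell, where the main count was 8. Of all genes, 16.6%, 19.0%, 2.11% and 4.52% were past it upward under the same settings, a count added after seeing the data, against 16.0%. Over the 120 ratios of the 15 mRNA and rRNA genes in the 8 comparisons, taken here without the filter on low values, the sign changed in 20 on medians, in 14 with pairs on genes, in 9 without the highest cell and in 0 with a pseudocount of 0.1 RPM. Of these ratios 12 were past the fold in the main setting. On medians 9 of the 12 were still past it, and all 12 were under the other settings. With pairs on genes 22 ratios were past it, and on medians 19. The log2 ratio of mitochondrial mRNA to the nuclear list, type against other types, was 2.13 for type 3 at P2 (2.56 on medians, 2.28 without the highest cell), 1.78 for type 3 at P5 (1.73 and 1.94) and -1.15 for type 2 at P5 (-1.37 and -1.21). No paired analysis was possible because replicate numbers only name cells and pair none of them across groups. Values by name prefix, which 3 prefixes allow for E18 and P5, are those given above. Genes with at most 3 pairs in each group, such as mt-Nd4l, cannot be ranked between groups at this depth.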
